A study of Mus musculus with 6 samples.

Results

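The genes of cholesterol and fatty acid synthesis were examined in WT and Oct6 KO EpiLCs. They form a list of 31 genes given by symbol, of the 55416 genes in the count table, and every one of the 31 had enough counts to be among the 15746 genes tested. Of these, 18 encode enzymes of sterol synthesis, 6 encode sensors, regulators or carriers of sterol, and 7 encode enzymes that make or modify fatty acids. RNA-seq was performed on 6 libraries, 3 of WT EpiLCs and 3 of Oct6 KO EpiLCs. EpiLCs, or epiblast-like cells, are a transitory population that resembles the epiblast of the embryo just after implantation. Both groups came from 46C mouse embryonic stem cells, a line that carries a GFP reporter in Sox1, and both were kept for 48 h in N2B27 medium with 1% KSR, bFGF and Activin A on fibronectin. The KO cells were a single clone with a homozygous CRISPR/Cas9 insertion of 1 nucleotide near the start codon of Oct6 (gene symbol Pou3f1), so differences between clone and parental line cannot be told apart from those of the mutation.

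Cholesterol is built from acetyl-CoA through mevalonate, squalene and lanosterol, and the genes of these steps are activated together by the transcription factor SREBP2 when sterol in the endoplasmic reticulum is low. SCAP escorts SREBP to the Golgi for activation, and INSIG proteins hold SCAP back when sterol is plentiful. The related SREBP1 acts mainly on fatty acid synthesis, in which ATP citrate lyase, acetyl-CoA carboxylase and fatty acid synthase make palmitate that is then elongated and desaturated.

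The promoters of the genes on which the results turn are shown here, because the sterol genes are known to be controlled through short motifs close to their start. Each line holds the 250 bases before the RefSeq start, from 5′ to 3′, and capitals mark the sterol regulatory element core TCACNCCAC, the CCAAT box, the E-box CACGTG and the POU octamer ATGCAAAT, each on either strand. None of these motifs contains another. The coordinates are of build GRCm38.p6: chr13:119690101-119690350 on the plus strand for Hmgcs1, chr5:114444019-114444268 on the plus strand for Mvk, chr13:8885356-8885605 on the plus strand for Idi1, chr10:76531355-76531604 on the plus strand for Lss, chr5:4104698-4104947 on the minus strand for Cyp51, chr5:28071162-28071411 on the plus strand for Insig1 and chr15:82147019-82147268 on the plus strand for Srebf2. Hmgcs1 is shown as the only gene, of the 25 with a window, with the sterol regulatory element core, Srebf2 as the only one with the octamer, and the other 5 because their transcripts differed between the groups.
Hmgcs1: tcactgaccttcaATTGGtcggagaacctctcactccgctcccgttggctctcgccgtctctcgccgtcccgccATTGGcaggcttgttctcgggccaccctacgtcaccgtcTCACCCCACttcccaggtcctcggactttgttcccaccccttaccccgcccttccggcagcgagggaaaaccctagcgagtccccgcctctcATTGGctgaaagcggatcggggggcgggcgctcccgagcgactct
Mvk: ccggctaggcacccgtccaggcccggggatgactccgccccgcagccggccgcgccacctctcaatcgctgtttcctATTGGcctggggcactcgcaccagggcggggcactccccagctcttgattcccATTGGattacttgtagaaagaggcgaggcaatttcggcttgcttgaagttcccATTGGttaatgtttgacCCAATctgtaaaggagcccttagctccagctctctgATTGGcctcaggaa
Idi1: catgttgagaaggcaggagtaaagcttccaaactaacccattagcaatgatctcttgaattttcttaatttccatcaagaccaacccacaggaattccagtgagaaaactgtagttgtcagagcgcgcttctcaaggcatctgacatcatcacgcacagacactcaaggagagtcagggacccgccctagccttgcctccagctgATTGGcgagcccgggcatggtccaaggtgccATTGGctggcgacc
Lss: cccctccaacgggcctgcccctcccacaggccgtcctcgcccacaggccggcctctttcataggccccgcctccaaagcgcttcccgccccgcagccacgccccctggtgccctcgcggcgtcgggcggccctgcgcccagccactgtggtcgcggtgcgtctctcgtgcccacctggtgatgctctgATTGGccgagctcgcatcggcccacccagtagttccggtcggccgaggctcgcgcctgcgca
Cyp51: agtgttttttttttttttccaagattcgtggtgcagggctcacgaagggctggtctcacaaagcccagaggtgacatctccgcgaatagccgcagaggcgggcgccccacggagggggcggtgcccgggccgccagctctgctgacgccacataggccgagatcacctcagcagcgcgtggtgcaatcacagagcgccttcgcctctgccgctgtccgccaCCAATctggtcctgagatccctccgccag
Insig1: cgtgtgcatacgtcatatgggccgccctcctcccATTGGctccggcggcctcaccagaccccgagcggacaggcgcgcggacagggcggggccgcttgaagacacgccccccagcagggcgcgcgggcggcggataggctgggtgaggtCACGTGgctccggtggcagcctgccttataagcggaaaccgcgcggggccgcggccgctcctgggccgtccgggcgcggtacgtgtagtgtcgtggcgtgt
Srebf2: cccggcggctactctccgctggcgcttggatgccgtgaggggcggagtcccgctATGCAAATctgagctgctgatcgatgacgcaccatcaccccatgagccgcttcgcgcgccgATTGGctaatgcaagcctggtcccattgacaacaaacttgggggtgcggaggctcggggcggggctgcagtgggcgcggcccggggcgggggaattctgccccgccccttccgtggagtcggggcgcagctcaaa

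Promoter windows were found for 25 of the 31 genes, and those of Fdps, Fdft1, Sqle, Scd1, Scd2 and Stard4 were not analysed here. Over the whole window, from 250 bases before to 50 after the start, 21 of 25 genes held a CCAAT box, or 84%, against 41.1% of the 27025 genes of the RefSeq table. Among the sterol enzymes this was 14 of 15, or 93.3%. The 5 boxes of Mvk before its start lie at positions -173, -120, -67, -50 and -14. The sterol regulatory element core as spelled here was found in 1 of 25 genes, at -137 in Hmgcs1, against 1.44% of all genes. An E-box was found in 5 genes, or 20%, against 8.09%, in the windows of Hsd17b7, Sc5d, Dhcr7, Insig1 and Scap. The octamer, the sequence that POU factors such as Oct6 are known to bind, was found in 1 of 25 genes, or 4%, against 1.97% of all genes. It lies at -196 in the window of Srebf2, and a single gene does not set the list apart from all genes. A match is a description of letters, and no match says only that these letters are not in the window.

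The count table was checked first. Library totals ran from 10995505 to 14680930 counts, and the EpiLC markers Fgf5, Otx2, Pou3f1, Dnmt3a, Dnmt3b, Pou5f1, Sox2 and Utf1 were detected in both groups, with sums of 3160 to 3530 CPM in WT and 3190 to 3350 CPM in KO EpiLCs. Of these 8, 3 were higher in the KO: Otx2 (log2 fold change 0.92, adjusted p = 0.00017), Fgf5 (0.65, 0.000381) and Sox2 (0.42, 0.0283, lost without WT replicate 1 or KO replicate 3). With replicates fitted as pairs, Dnmt3a (0.23) was also higher and Dnmt3b (-0.19) and Pou5f1 (-0.19) lower. Pou3f1 was at 160.5, 142.3 and 121.8 CPM (counts scaled to library size with TMM factors) in WT replicates 1 to 3 and at 126.7, 140.5 and 128.2 CPM in KO replicates 1 to 3. These overlapping levels (log2 fold change -0.10, SE 0.11, adjusted p = 0.574) do not check the genotype, since an insertion need not remove the transcript. The markers of naive pluripotency summed to between 226 and 238 CPM in WT and between 329 and 411 CPM in KO EpiLCs, with 5 of 9 higher in the KO. The neural markers summed to 40.9 to 45.3 CPM against 15.4 to 16.7 CPM, with Sox1 and Nes, the 2 of 4 that were tested, lower in the KO. The fibroblast markers summed to 5.83 to 8.04 CPM against 3.08 to 4.20 CPM, with 1 of 5 lower, the primitive endoderm markers to 6.37 to 8.41 CPM against 6.54 to 18.5 CPM, with 2 of 7 higher, and the primitive streak markers to 6.14 to 6.48 CPM against 8.77 to 11.8 CPM, with 1 of 5 higher. The part of these differences in cell state in the values below was not tested, and in bulk RNA fewer cells of a type and less RNA per cell cannot be told apart.

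With genotype alone in the model, 6 of the 31 genes differed between WT and Oct6 KO EpiLCs, each by less than 1.5-fold. Mvk, Lss and Cyp51, which encode mevalonate kinase, lanosterol synthase and lanosterol demethylase, were lower in the KO. Idi1, Insig1 and Scd2, which encode isopentenyl diphosphate isomerase, a sterol sensor and a stearoyl-CoA desaturase, were higher. By the quasi-likelihood test of edgeR, with p-values adjusted over all genes tested (Benjamini-Hochberg), these 6 of 31 genes (19.4%) passed an adjusted p below 0.1, against 24.3% of all 15746 genes. In GRCm39 they lie as follows: Mvk at chr5:114582267-114601803, Idi1 at chr13:8935537-8942487, Lss at chr10:76367298-76392976, Cyp51 at chr5:4123416-4154751, Insig1 at chr5:28276315-28283668 and Scd2 at chr19:44281613-44295303. The 3 higher genes stand beside a background of 11.8% and the 3 lower genes beside 12.5%. None of the 31 had an absolute log2 fold change of 1 or more, which 6.21% of all genes combined with an adjusted p below 0.1, and the largest was 0.54.

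With the replicate number as a block, since the design text deposited with the series calls the replicates paired, 11 of 31 genes (35.5%) passed, against 30.3% of all genes, so that the share in the list was below that of all genes without the block and above it with the block. The block added Pmvk (adjusted p = 0.0908), Fdps (0.0445) and Fdft1 (0.0498) on the lower side and Scd1 (0.0415) and Elovl6 (0.0573) on the higher side. The p-values measure the spread between 3 cultures of 1 line and 3 cultures of 1 clone.

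**Figure D1:**
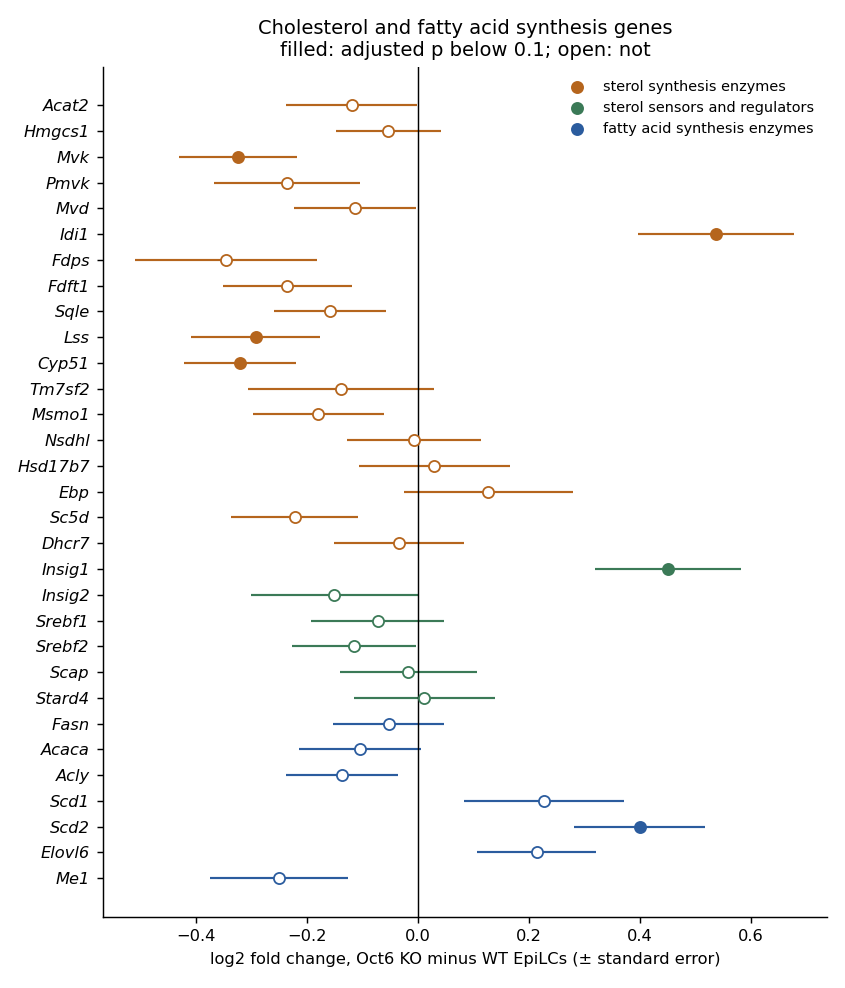
Log2 fold change, Oct6 KO minus WT EpiLCs, with its standard error for each of the 31 genes in pathway order, coloured by group (n = 3 libraries per genotype). Filled points mark the 6 genes with an adjusted p below 0.1, Mvk, Lss and Cyp51 left of 0 and Idi1, Insig1 and Scd2 right of it, and 15 of the 18 sterol enzymes lie below 0.

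Among the enzymes that lead from acetyl-CoA to isopentenyl diphosphate, Mvk was the one that fell. Mvk, which phosphorylates mevalonate, was at 88.8, 97.9 and 77.1 CPM in the 3 WT libraries and at 68.1, 73.4 and 68.7 CPM in the 3 KO libraries. All KO libraries lay below all WT libraries, although WT replicate 3 was within 4 CPM of KO replicate 2. The log2 fold change was -0.32 (SE 0.11, adjusted p = 0.0379). The call was lost without WT replicate 2 (-0.25, adjusted p = 0.160), KO replicate 1 (-0.31, 0.119) or KO replicate 3 (-0.31, 0.118). The neighbouring steps had values in the same direction that did not pass without the replicate block. Acat2, the acetyl-CoA acetyltransferase of the first step, was at 183.9 ± 32.9 CPM in WT and 169.3 ± 12.8 CPM in KO EpiLCs (mean ± SD, n = 3; log2 fold change -0.12). Hmgcs1, which makes HMG-CoA, was at 774.8 ± 59.8 and 746.8 ± 33.4 CPM (-0.05). Pmvk, the kinase of the next phosphorylation, was at 121.5 ± 26.3 and 103.1 ± 9.52 CPM (-0.24, adjusted p = 0.248, 0.0908 with the block), and Mvd, the decarboxylase that yields isopentenyl diphosphate, at 187.7 ± 29.2 and 173.5 ± 8.56 CPM (-0.11). In each of Acat2, Pmvk and Mvd the lowest WT library was replicate 1, which was also below every KO library.

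Idi1, which interconverts the isoprenoid building blocks isopentenyl and dimethylallyl diphosphate, was the sterol enzyme that rose. It was at 48.3, 29.0 and 40.6 CPM in WT and at 60.6, 55.4 and 55.6 CPM in KO EpiLCs, with no overlap. The KO libraries were close together, and WT replicate 2 was the lowest of the 6. The log2 fold change was 0.54 (SE 0.14, adjusted p = 0.0108), and it ran from 0.36 without WT replicate 2 to 0.71 without WT replicate 1, with the call kept each time a library was left out. The value carries a limit of mapping. Of the 31-base words of the Idi1 transcript, 94.9% occur elsewhere in GRCm39, most of them in the processed pseudogene Idi1-ps1 on chromosome 2. Idi1-ps1 itself had 54, 36 and 67 counts in WT and 82, 86 and 88 counts in KO libraries, against 318 to 750 counts of Idi1, and it too was higher (log2 fold change 0.74, SE 0.22, adjusted p = 0.0216). How the counting placed reads that match both loci is not given in the sources used here, so the levels of the gene and its copy are uncertain.

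Of the enzymes from isoprenoids to lanosterol, Lss fell. Lss, which folds oxidosqualene into lanosterol, was at 296, 399 and 374 CPM in WT and at 254, 314 and 305 CPM in KO libraries. Replicate 1 was the lowest library in both groups, so the groups overlapped, while each KO library was below the WT library of the same number. The log2 fold change was -0.29 (SE 0.12, adjusted p = 0.0897), the weakest of the 6 calls. It was lost without WT replicate 2 (adjusted p = 0.272), WT replicate 3 (0.197), KO replicate 1 (0.345) or KO replicate 3 (0.134). Fdps, the farnesyl diphosphate synthase, was at 27.3 ± 6.30 and 21.4 ± 3.13 CPM (-0.35, adjusted p = 0.166, 0.0445 with the block). Fdft1, or squalene synthase, was at 314.9 ± 53.2 and 267.3 CPM on average (266.8, 293.6 and 241.6 in the KO libraries; -0.24, 0.184, 0.0498 with the block), and Sqle, the squalene epoxidase, at 263.6 ± 25.4 and 236.2 ± 15.8 CPM (-0.16, 0.319). Fdps has 77.5% of its 31-base words elsewhere, and its transcribed pseudogene Gm3571 had 237 to 372 counts per library against 221 to 462 of Fdps, so its level is uncertain. For Fdft1, 25.6% of the words lie elsewhere, mostly in the processed pseudogene Gm6781, with 52 to 82 counts per library against 3220 to 4430 of Fdft1. Exons of Ctsb on the opposite strand cover 24.8% of the Fdft1 exon bases.

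Of the enzymes that turn lanosterol into cholesterol, Cyp51 fell and the others did not pass. Cyp51, the lanosterol 14-alpha demethylase, was at 309, 381 and 347 CPM in WT and at 280, 292 and 258 CPM in KO EpiLCs. The groups did not overlap. The log2 fold change was -0.32 (SE 0.10, adjusted p = 0.0308), and the call was lost without WT replicate 2 (-0.25, adjusted p = 0.110) or KO replicate 3 (-0.27, 0.140). On the opposite strand, exons of Akap9 cover 21.1% of the Cyp51 exon bases. Akap9 was at 140.9 ± 35.9 and 157.9 ± 10.4 CPM (log2 fold change 0.16, adjusted p = 0.483), and whether the counting used strand is not given in the sources used here.

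The remaining 7 enzymes of these late steps had log2 fold changes from -0.22 to 0.13. Msmo1, the sterol C4-methyl oxidase, was at 518, 718 and 725 CPM in WT and 567, 626 and 539 CPM in KO libraries (-0.18, adjusted p = 0.337), with WT replicate 1 below every other library. Sc5d, a sterol desaturase, was at 75.5 ± 11.01 and 64.8 ± 3.78 CPM (-0.22, adjusted p = 0.205), and Tm7sf2, a sterol C14 reductase, at 25.5 ± 6.04 and 23.1 ± 3.73 CPM (-0.14). Nsdhl and Hsd17b7, which act after Msmo1 in removing the C4 methyl groups, were at -0.007 and 0.03 on the log2 scale. Dhcr7, which catalyses the reduction of 7-dehydrocholesterol, was at -0.03, and Ebp, the sterol isomerase, at 0.13 with an adjusted p of 0.636.

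**Figure D2:**
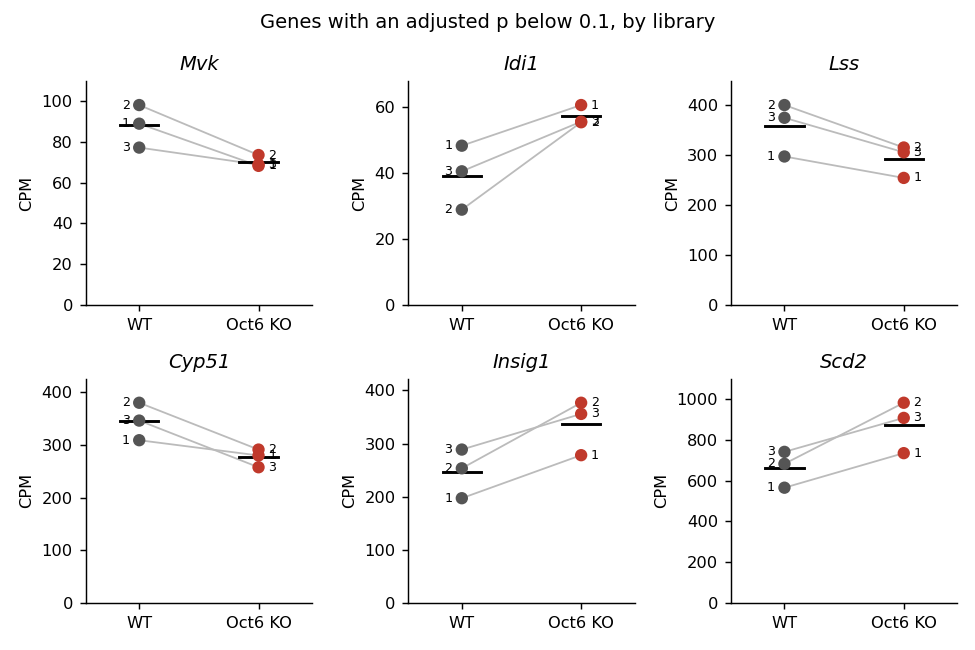
CPM in each library for the 6 genes with an adjusted p below 0.1, WT in grey and Oct6 KO in red, from 0. Numbers give the replicate, grey lines join libraries of the same number and black bars are group means. The groups are apart for Mvk, Idi1 and Cyp51 and overlap for Lss, Insig1 and Scd2, where replicate 1 is the lowest library in both groups.

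Among the sensors and regulators, Insig1 was the gene that rose. Insig1, which retains SCAP in the endoplasmic reticulum and is itself known as a target of SREBP, was at 197, 253 and 289 CPM in WT and at 278, 377 and 356 CPM in KO EpiLCs. KO replicate 1 lay below WT replicate 3, so the groups overlapped, but each KO library exceeded the WT library of the same number, by 0.50, 0.57 and 0.30 on the log2 scale. The log2 fold change was 0.45 (SE 0.13, adjusted p = 0.0199), and the call was lost without WT replicate 1 (0.31, adjusted p = 0.117). Part of the transcript is not unique, with 45.4% of its 31-base words also in the genome elsewhere, mainly in the processed pseudogene Gm37784 on chromosome 3. That copy had 28 to 58 counts per library against 2647 to 4895 of Insig1.

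The other 5 regulators did not pass. Insig2 was at 14.7 ± 1.14 CPM in WT and 13.2 ± 0.546 CPM in KO EpiLCs (log2 fold change -0.15, adjusted p = 0.555). Srebf1 and Srebf2, which encode the SREBP factors, were at 163.8 ± 12.4 against 155.8 ± 29.7 CPM (-0.07) and at 107.3 ± 10.5 against 99.0 ± 13.2 CPM (-0.11). Both were lower in the KO in replicates 1 and 2 and higher in replicate 3. Scap was at 55.9 ± 8.68 and 55.3 ± 6.22 CPM (-0.02) and Stard4, a carrier that moves sterol between membranes, at 117.0 ± 22.8 and 118.0 ± 11.8 CPM (0.01). With standard errors of 0.11 to 0.15 on the log2 scale, differences of this size were not detectable with 3 libraries per group.

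Of the fatty acid enzymes, Scd2 rose, and the enzymes that make palmitate had values near those of WT. Scd2, a desaturase that introduces a double bond into saturated fatty acids, was at 565, 682 and 741 CPM in WT and at 734, 981 and 907 CPM in KO libraries. KO replicate 1 lay just under WT replicate 3, while the pairs of the same number differed by 0.38, 0.53 and 0.29 on the log2 scale. The log2 fold change was 0.40 (SE 0.12, adjusted p = 0.0217), and the call was lost without WT replicate 1 (0.30, adjusted p = 0.127) or KO replicate 2 (0.31, 0.120). Its paralogue Scd1, the neighbouring gene on chromosome 19, was at 158.3 ± 34.8 and 185.3 ± 31.4 CPM (0.23, adjusted p = 0.313, 0.0415 with the block). Elovl6, which elongates palmitate to stearate, was at 240.6 ± 36.3 and 279.2 ± 6.65 CPM (0.21, adjusted p = 0.192, 0.0573 with the block). Each of Scd2, Scd1 and Elovl6 was higher in the KO in 3 of 3 pairs. Such agreement is common, since 52.1% of all genes tested kept the same direction in 3 pairs, against 13 of the 31 genes (41.9%). Scd1 and Scd2 share few words, 8.49% of those of Scd1 and 5.60% of those of Scd2 being found elsewhere in the genome.

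Acly, Acaca and Fasn, the enzymes from citrate to palmitate, were not called. Fasn was at 1052, 1120 and 1100 CPM in WT and 969, 997 and 1188 CPM in KO libraries (log2 fold change -0.05, adjusted p = 0.776). Acly was at 1016 ± 125 and 924.1 ± 10.4 CPM (-0.14, adjusted p = 0.399). Acaca was at 241.2 ± 34.8 and 224.4 ± 17.5 CPM (-0.10), with 72.3% of its 31-base words in the pseudogene Gm5182 or elsewhere and 362 to 550 counts assigned to that copy. Me1, the malic enzyme that supplies NADPH, was at 30.2, 33.2 and 30.0 CPM in WT and at 23.1, 28.5 and 26.8 CPM in KO libraries. Its groups did not overlap, but it did not pass (-0.25, SE 0.12, adjusted p = 0.189). Exons of Rwdd2a on the other strand cover 35% of its exon bases. Of the 31-base words of Me1, 37% lie elsewhere, mostly in the processed pseudogene Gm7049. That copy had 11 to 34 counts per library against 286 to 444 of Me1, and it too was lower (-1.01, SE 0.36, adjusted p = 0.0539). In all, the groups did not overlap for 4 of the 31 genes (12.9%), Mvk, Idi1, Cyp51 and Me1, against 33.7% of all genes tested.

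**Figure D3:**
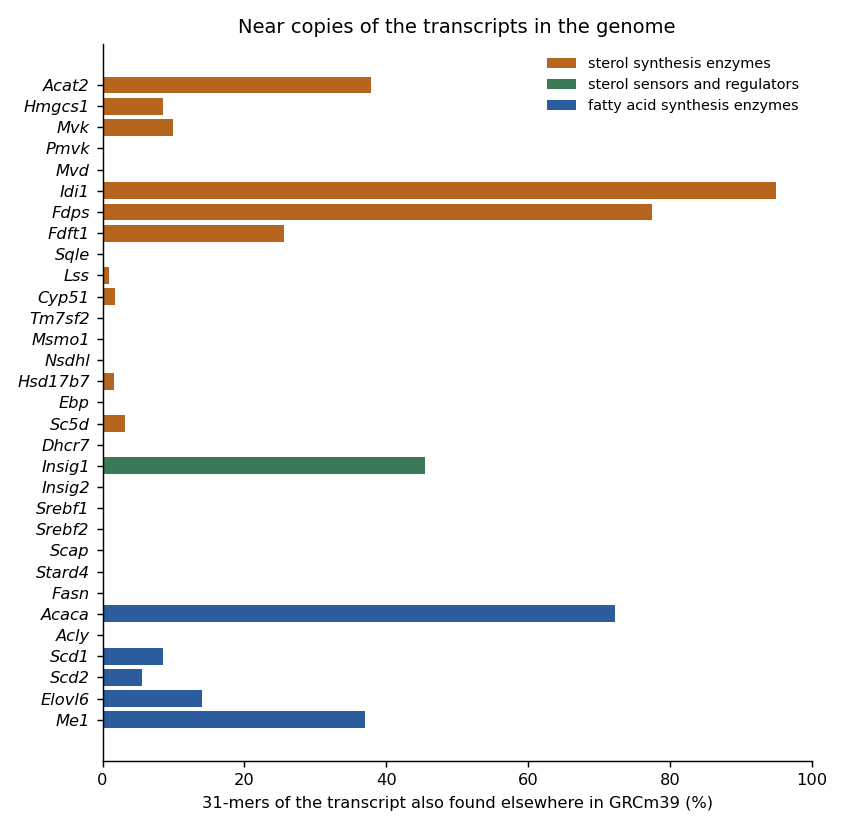
Share of the 31-base words of each gene's transcript that are also found elsewhere in GRCm39, in %, by gene in pathway order. Idi1 (94.9%), Fdps (77.5%) and Acaca (72.3%) have most of their words elsewhere, Insig1, Acat2 and Me1 between 37% and 45.4%, and Lss, Cyp51 and Scd2 under 6%.

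The sterol and the fatty acid branch were then set side by side. The median log2 fold change was -0.15 over the 18 sterol enzymes, 15 of them negative, -0.05 over the 7 fatty acid enzymes, 4 of them negative, and -0.04 over the 6 regulators, against 0.001 over all genes tested. The sterol enzymes, taken as the mean deviation of log2 CPM from each gene's mean over the 6 libraries, stood at -0.15, 0.17 and 0.14 in WT and at -0.11, 0.02 and -0.06 in KO libraries. WT replicates 2 and 3 were the highest and WT replicate 1 the lowest of the 6, and the KO libraries lay between. Pairs of the same number differed by 0.04, -0.15 and -0.20, so that the direction was not shared by all pairs. The fatty acid enzymes stood at -0.18, 0.04 and 0.07 in WT and at -0.11, 0.07 and 0.10 in KO libraries. Their pairs differed by 0.08, 0.03 and 0.03 (SD 0.028), while the SD within a group was 0.14 in WT and 0.11 in KO libraries. With library totals alone for scaling the pairs differed by 0.04, -0.008 and 0.03, so the direction in replicate 2 depended on the scaling. The regulators stood at -0.12, 0.05 and 0.04 in WT and at -0.12, 0.03 and 0.12 in KO libraries, and their mean difference of 0.02 was -0.005 when library totals alone were used for scaling. In sums of CPM, the sterol enzymes were at 3609 ± 439 CPM in WT and 3230 ± 155 CPM in KO EpiLCs, and the fatty acid enzymes at 3440 ± 298 and 3565 ± 254 CPM.

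**Figure D4:**
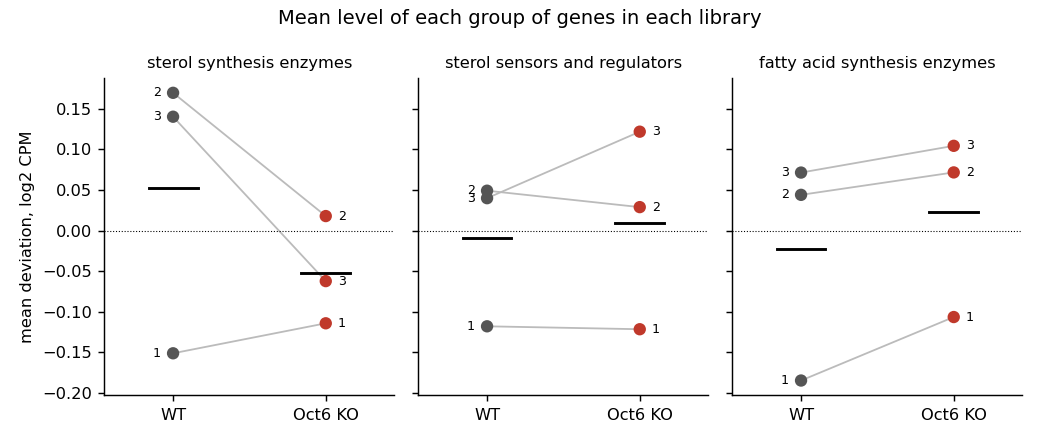
Mean deviation of log2 CPM from each gene's mean, per library, for the 3 groups of genes. WT libraries are grey and KO libraries red, numbers give the replicate, grey lines join libraries of the same number and black bars are group means. Replicate 1 is low in both genotypes for all 3 groups, and the sterol enzymes of WT replicates 2 and 3, at 0.17 and 0.14, stand above the KO libraries.

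For the sterol enzymes, much of the spread lay within the WT group. WT replicate 1 was the lowest WT library in 25 of the 31 genes (80.6%) and in 16 of the 18 sterol enzymes (88.9%), against 33.3% of all genes tested. It was the lowest of all 6 libraries in 14 of 31 genes (45.2%), against 18.5%. KO replicate 1 was the lowest KO library in the mean level of each group of genes. The median SD of log2 CPM over the sterol enzymes was 0.226 in WT and 0.104 in KO EpiLCs, against 0.181 and 0.161 over all genes. It was 0.178 in WT and 0.181 in KO EpiLCs over the regulators, and 0.2 and 0.154 over the fatty acid enzymes. Without WT replicate 1, the median of the sterol enzymes was -0.29, 9 of them passed (adding Pmvk, Fdps, Fdft1, Msmo1 and Sc5d), and Insig1 and Scd2 were lost. Without WT replicate 2 their median was -0.08 and Idi1 alone of the sterol enzymes passed, as it did without KO replicate 3 (median -0.12). Over all genes, 3330 passed without WT replicate 1, 3189 without WT replicate 2 and 3096 without KO replicate 3, against 3833 with every library. WT replicate 1 had 13202494 counts, within the range of the others, and 0.564% of mitochondrial counts against 0.484% and 0.463% in WT replicates 2 and 3. KO replicate 2, with 0.573%, was the highest KO library for the sterol enzymes. The part of RNA quality or culture in this pattern was not tested.

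Between genes, levels were compared as CPM per kb of the canonical transcript. The sterol enzymes covered a wide range in WT EpiLCs, from 7.34 ± 0.653 CPM per kb for Ebp to 250.1 ± 44.9 for Msmo1, with Hmgcs1 next below it at 189.1 ± 14.6. Acly was the highest fatty acid enzyme at 230.4 ± 28.4 CPM per kb, which Msmo1 did not exceed beyond their spread. Insig1, at 90.0 ± 16.9 CPM per kb in WT and 123.0 ± 19.0 in KO EpiLCs, was far above Insig2, at 5.26 ± 0.409 and 4.73 ± 0.196. Srebf1 stood at 37.8 ± 2.87 and Srebf2 at 21.1 ± 2.07 CPM per kb in WT, and Scd2, at 121.4 ± 16.4, was above Scd1, at 31.5 ± 6.92. Levels of Idi1, Fdps and Acaca per kb are uncertain for the copies named above.

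**Figure D5:**
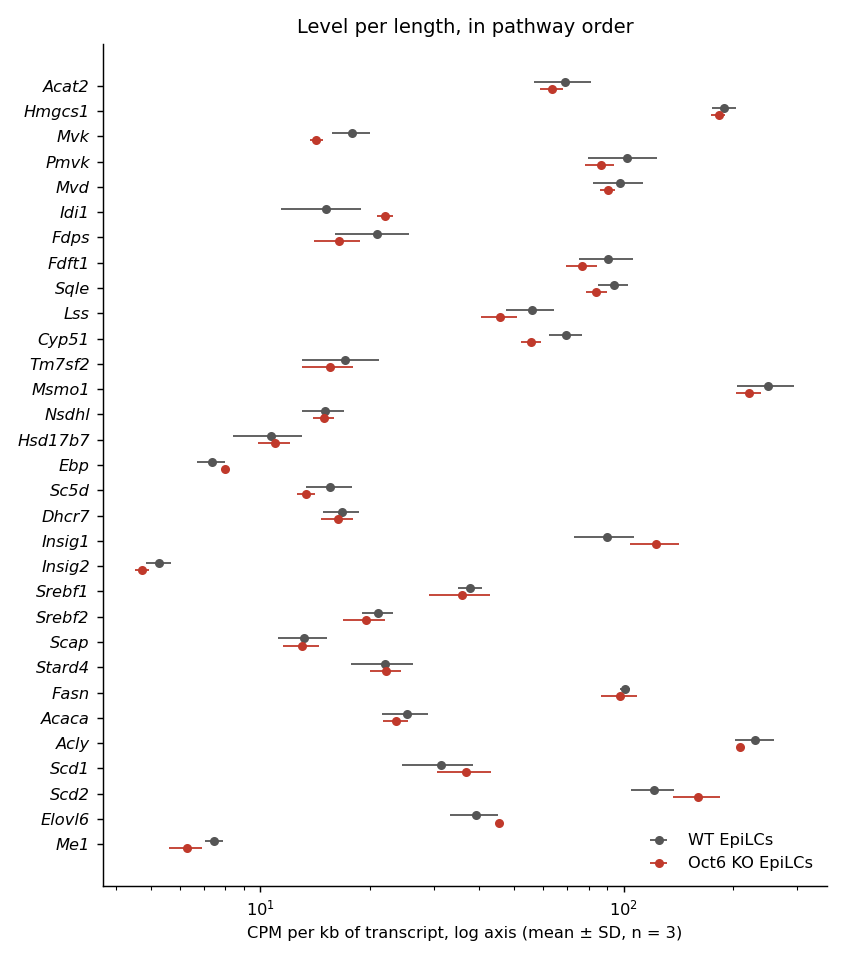
CPM per kb of transcript on a log axis for the 31 genes in pathway order, mean ± SD of 3 libraries, WT in grey and Oct6 KO in red. Msmo1, Acly and Hmgcs1 lie highest and Insig2, Ebp and Me1 lowest in both genotypes, and most pairs of points overlap within their SD.

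The wider pathway was read from 6 further lists, with the same test. Of 14 tested genes of late sterol steps and feedback, 2 passed, 1 in each direction, among them Mylip, a ubiquitin ligase that acts on lipoprotein receptors, which was higher (log2 fold change 0.52, SE 0.19, adjusted p = 0.0673). The Mylip call was lost with DESeq2 (adjusted p = 0.111) and without WT replicate 1 (0.205), WT replicate 3 (0.135) or KO replicate 3 (0.312). Of 10 genes of sterol transport and storage, Abca1, which exports cholesterol, was higher (0.56, SE 0.21, adjusted p = 0.0720), at 5.01 to 6.88 CPM in WT and 6.93 to 10.3 CPM in KO libraries. This call too was lost with DESeq2 (adjusted p = 0.127) and with any library but WT replicate 3 or KO replicate 2 left out (0.135 to 0.284). Of 12 genes of the isoprenoid branch, Fnta, the alpha subunit of protein farnesyltransferase, fell (-0.35, SE 0.10, adjusted p = 0.0180), a call kept each time a library was left out.

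The list of fatty acid supply, elongation and desaturation was the longest and had the most calls, 4 higher and 4 lower. These were 8 of 27 tested genes (29.6%), against 24.3% of all genes. Slc25a1, the mitochondrial citrate carrier, rose from 79.97 to 92.6 CPM in WT to 145.6 to 159.4 CPM in KO libraries (0.81, SE 0.10, adjusted p = 1.2e-05), and the elongation enzyme Hacd2 rose by 0.58 (SE 0.12, adjusted p = 0.00212). Both lie on chromosome 16, whose 471 tested genes had a median log2 fold change of 0.55, while chromosome 6 had a median of -0.40 over 773 genes. None of the 31 genes lies on either chromosome. The elongases moved in both directions, with Elovl2 higher (0.72, SE 0.23) and Elovl4 (-0.68, SE 0.17) and Elovl5 (-0.38, SE 0.12) lower. Acsl5, an acyl-CoA synthetase, rose by 0.38, and Hsd17b12, a ketoacyl-CoA reductase of elongation, was at -0.29 (adjusted p = 0.0494). Thrsp, at 0.150 to 1.00 CPM, was at -1.38 (SE 0.56, adjusted p = 0.0990), on 2 to 12 counts per library, the only one of these calls with an absolute log2 fold change of 1 or more. It was lost with DESeq2 (adjusted p = 0.275) and with any library but KO replicate 1 left out (0.157 to 0.324). Leaving out a library also ended the calls of Elovl2 (WT replicate 1 or KO replicate 2, adjusted p up to 0.173), Elovl5 (WT replicate 2, WT replicate 3 or KO replicate 1, up to 0.159) and Hsd17b12 (WT replicate 2 or KO replicate 3, up to 0.221), but not those of Slc25a1, Hacd2, Elovl4 and Acsl5.

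Of 11 genes of glycerolipid synthesis, the acyltransferase Agpat5 rose (0.30, adjusted p = 0.0281) and Agpat4 fell (-0.44, adjusted p = 0.0358). Agpat5 was lost without WT replicate 1 (0.129), and Agpat4 without WT replicate 1, KO replicate 2 or KO replicate 3 (up to 0.180). Of 19 tested genes of fatty acid oxidation, 3 passed and all were higher. Hadhb, a subunit of the mitochondrial trifunctional protein, went from 74.1 to 91.8 CPM in WT to 106.7 to 113.4 CPM in KO libraries (0.45, SE 0.10, adjusted p = 0.00425). The dehydrogenases Acadvl and Acads were higher by 0.37 (adjusted p = 0.0497) and 0.34 (adjusted p = 0.0676). Hadhb was kept with any library left out, while Acadvl was lost without WT replicate 3, KO replicate 1 or KO replicate 3 (up to 0.218) and Acads with any library but WT replicate 2 or KO replicate 1 left out (0.127 to 0.328). Over the 19 genes 11 values were negative and the median was -0.08. Apart from fatty acid supply, elongation and desaturation, the share of calls in each of these lists was below the 24.3% of all genes. With the replicate block, against 30.3% of all genes, fatty acid supply, elongation and desaturation was at 51.9% (14 of 27) and the isoprenoid branch at 33.3% (4 of 12), and the other 4 lists were between 14.3% and 27.3%.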

How the data were processed

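Total RNA of 3 WT and 3 Oct6 KO EpiLC cultures was sequenced. The deposited values are raw counts per gene, made by the authors, who used FastQC and fastp on the reads and then STAR (two-pass, GRCm39) for both alignment and counting. The libraries kept strand. The annotation release, strand setting and handling of reads with several matches are not given in the sources used here. Of 55416 identifiers, 54749 matched GENCODE M39.

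Genes were tested with edgeR 4.0.16 (R 4.3.3): TMM, filterByExpr with a minimum count of 10, quasi-likelihood test of genotype, Benjamini-Hochberg adjustment over 15746 genes, called at an adjusted p below 0.1. The SE was derived from the F statistic. CPM per kb used the Ensembl canonical transcript length. The common dispersion was 0.0137, a biological coefficient of variation of 11.7%, and this with 3 libraries per group sets the precision. The design text deposited with the series calls the replicates paired, whereas the paper's RNA-seq methods do not mention pairing. Deviations of same-numbered libraries from their group means correlated at 0.253, 0.301 and 0.123 over 13219 genes. Those of other numbers correlated between -0.228 and -0.0383. Deviations within a group cancel out, so these negative values are no separate sign of pairing. Fits with a replicate block are given where they change a call. Libraries of a group differed beyond counting noise (chi-square per degree of freedom 6.94 to 11.8).

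Alternatives were RLE size factors, library totals, TMM without chromosomes 6 and 16, other filters, DESeq2 1.42.0, the block, an adjusted p below 0.05, a prior count of 0.5 in place of 2 for log2 CPM, and each library left out. Words of 31 bases of each transcript were looked up in GRCm39, and exon overlaps in GENCODE. Promoter windows came from RefSeq (GRCm38.p6). The 31 genes and the other lists were chosen with earlier results of these data known. All 31 genes are named, with every library's value for those called, and called genes of the other lists. Akap9, Rwdd2a, Ctsb and the pseudogenes were named after their values were seen. Some genes that meet the naming rule are not reported here.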

Additional observations from a re-analysis of the deposited data

How the results depend on the processing

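The 6 calls, Mvk, Lss, Cyp51, Idi1, Insig1 and Scd2, were the same genes under RLE size factors, library totals, TMM without chromosomes 6 and 16, DESeq2, no filter and a floor of 10 counts per library, and an adjusted p below 0.05 left out Lss and kept the other 5. Over 434 single-gene values under the alternatives, no called value changed direction, 13 lost and 11 gained a call. The replicate block gave 11 of 31 genes in all, 7 sterol enzymes and 3 fatty acid enzymes, kept all 6 calls, gave 30 calls among the other genes of the pathway against 17 (14 with DESeq2, which lost Mylip, Abca1 and Thrsp), and left the regulators at 1. Leaving out a library in turn gave 3 to 9 calls over the list, 1 to 9 sterol enzymes, 0 to 1 regulators, 0 to 2 fatty acid enzymes and 10 to 17 other genes of the pathway. Over all genes the same fits gave 3058 to 3790 calls, against 3833 with every library. The counts of 3 came without WT replicate 2 and without KO replicate 3, and that of 10 without KO replicate 3. The cause was not tested, although each such fit has fewer samples. The medians of the regulators and of the fatty acid enzymes changed sign without KO replicate 1, to 0.02 and 0.0005. With 3 libraries per group and standard errors of 0.10 to 0.17 on the log2 scale, changes of the size seen in most of these genes cannot be resolved.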
